A study of Mus musculus with 6 samples.

Results

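The nuclear genes of the respiratory chain and of ATP synthase were examined in primary ventricular cardiomyocytes of 1-day-old C57BL/6J mice. They were taken from the deposited expression table by name: protein-coding genes outside the mitochondrial genome whose symbols begin with Nduf, Sdhaf, Uqcr, Uqcc, Atp5 or with Cox and a number, and in addition Sdha to Sdhd, Cyc1 and Cycs. The rule gave 112 of 54532 listed genes, with 111 distinct names, since Atp5o was listed under 2 identifiers. The cells carried either a short hairpin RNA against Gdf11 (shGDF11, 3 libraries), a secreted factor of the TGF-beta family, or a control hairpin (control, 3 libraries), which the labels call sh-nc and sh-Vector. Cells received either hairpin with a multiplicity of infection of 200 and gave RNA 48 h later. The libraries of a group are numbered, but the labels leave it unsaid if they are separate cultures or separate hairpins, and the p-values therefore reflect no more than the spread between libraries, which may be technical. The cells were cultures under knockdown and not hearts, and cells without a hairpin were not analysed here.

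Oxidative phosphorylation passes electrons from NADH through complex I, or from succinate through complex II, to ubiquinone, then to complex III, cytochrome c and complex IV, where oxygen is reduced. Complexes I, III and IV pump protons across the inner mitochondrial membrane, and ATP synthase uses their return flow to make ATP. Most subunits are encoded in the nucleus and join a few encoded in mitochondrial DNA, and separate assembly factors help to build each complex. Beating cardiomyocytes depend heavily on this pathway. Several complex IV subunits come in isoforms, with a widely expressed gene beside one used in heart and skeletal muscle or under low oxygen.

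The libraries held 15267083 to 16152910 reads in listed genes, of which 2.51% to 2.81% fell in the respiratory chain and ATP synthase genes. In a gene of 1 kilobase, 3 reads amounted to 0.18 to 0.191 FPKM (fragments scaled by gene length and library depth). Gdf11 itself was at 2.76, 2.30 and 2.31 FPKM in the controls and at 0.614, 0.601 and 0.778 FPKM in the shGDF11 libraries, 27.1% of control on average (limma adjusted p = 0.00079, exact two-sided permutation p = 0.1, the smallest that 3 against 3 allows). All 8 cardiomyocyte markers examined were measured, and they summed to 3983 to 4668 FPKM (control) and 4126 to 4489 FPKM (shGDF11). Of these markers Myl2 and Tnni3 were called higher (log2 fold changes 0.59 and 0.34) and Actn2 and Ryr2 lower (-0.41 and -0.28). The share of reads in ribosomal RNA genes was 0.298% to 0.319% in control and 0.470% to 0.502% in shGDF11, and its part in the results was not tested.

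Most of the pathway stayed near its control level, as did most tested genes, and a small number of genes changed more, in both directions. Of the 112 genes, 109 averaged 0.5 FPKM or more across the 6 libraries and were tested. Cox8c, a testis form of a complex IV subunit, and the second Atp5o entry had no reads in any library, and Cox7b2, another testis form, was at 0 to 0.686 FPKM. At an adjusted p under 0.05, limma called 5 of the 109 higher in shGDF11 and 18 lower, 21.1% in all. Over all 15418 genes tested 27.6% were called, 14.4% higher and 13.1% lower, and among tested protein-coding genes 30.3%. A separate test of the 7798 genes averaging 5 FPKM or more called 37.5% of them and 29 of the 100 respiratory chain and ATP synthase genes among them, 5 higher and 24 lower. The share of these genes was slightly above that of all genes in some analyses. It was 33.94% against 32.96% with voom, 36.7% against 35.1% with library weights and 10% against 9.72% with no filter on low values. In all other analyses it was the lower of the pair. Examples are 15.6% against 26.1% with no variance trend and 17.4% against 25.2% in TPM (libraries rescaled to the same total). The share called was thus near the background or below it. Control and shGDF11 values were fully separate in 46 of the 109 genes (42.2%), against 45.8% of all tested and 49.9% of tested protein-coding genes.

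Changes are given as log2 fold changes, shGDF11 minus control, on the log2(FPKM + 0.5) scale, where changes of low genes come out too small. Their median over the 109 genes was -0.12, against 0.01 over all tested genes, with 71 below 0 and 38 above. In 74 of the 109 the estimate lay within 0.3 of 0, beside 9532 of all 15418 tested genes and 8349 of 12859 tested protein-coding ones. The median change without its sign was 0.20 in the 109, against 0.22 in all tested and 0.21 in protein-coding genes. In 64 of the 109 the 95% interval lay within 0.5 of 0. After rescaling each library to the same total (TPM), which moved the median of all genes to 0.09, 9 were called higher and 10 lower, with a median of -0.03. The higher calls were then 47.4% of the called respiratory chain and ATP synthase genes, against 21.7% before rescaling, and those of all called genes moved likewise, from 52.4% to 66.2%. The totals behind this scaling were 351657, 316233 and 315542 FPKM in control and 309981, 306878 and 304770 FPKM in shGDF11. A single miRNA gene model, Gm23935, held 40996, 9686 and 1939 FPKM of the control totals. In shGDF11 it held 2272, 1065 and 1886 FPKM. Its part in the TPM result was not tested. The summed level of all 112 genes was 15907, 13591 and 14540 FPKM in control and 14417, 13797 and 13874 FPKM in shGDF11. These sums overlapped between the groups.

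**Figure D1:**
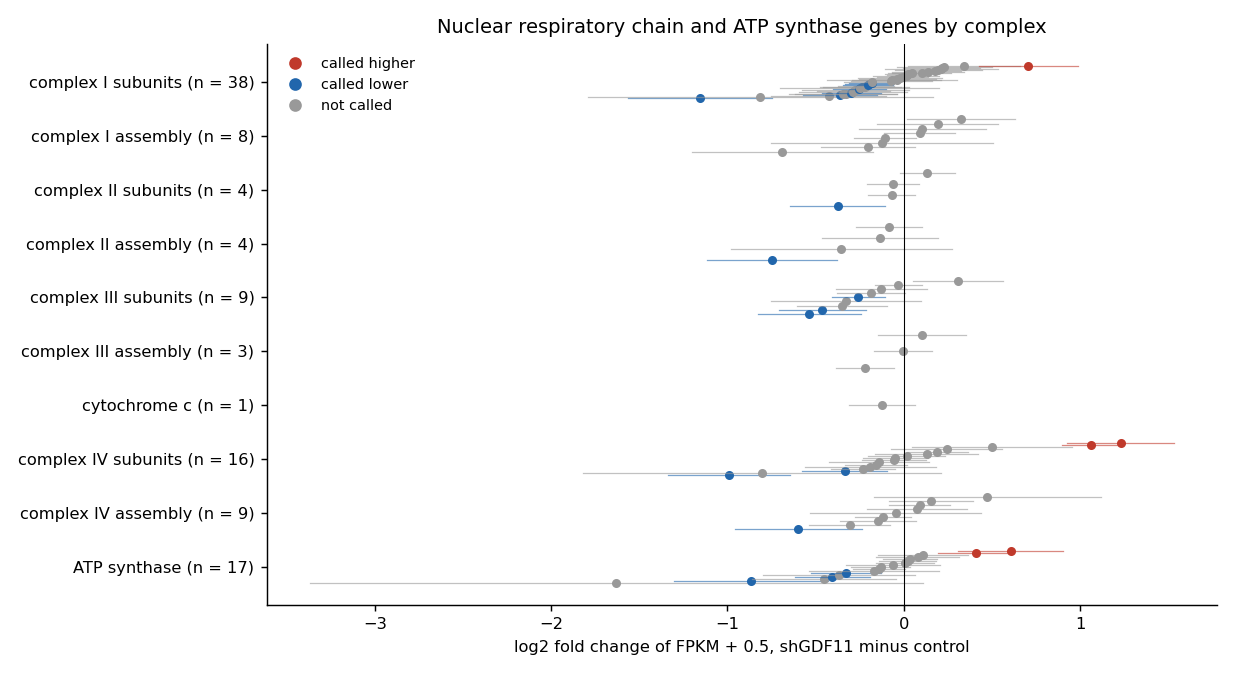
Log2 fold change of FPKM + 0.5 (shGDF11 minus control, horizontal axis) of the 109 tested genes, grouped by complex and sorted within each. Points are estimates and lines 95% intervals from limma, with called genes in red (higher) and blue (lower) and the others in grey. Most points lie within 0.3 of 0, and the red points past 1 are Cox6a1 and Cox6a2.

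The count of falls depended on which library was left out. The 18 lower calls became 10 with shGDF11 replicate 1 left out, 3 with replicate 2 left out and 2 with replicate 3 left out of that group. Calls over all tested genes also dropped in these analyses, from 27.6% to 17.6%, 15.1% and 16.4%. The share of these genes called went from 21.1% to 12.8%, 5.5% and 6.4%. Without control replicate 1, 2 or 3 the lower calls were 17, 14 and 16. The 5 higher calls became 3 without shGDF11 replicate 2, 8 without control replicate 1 and 12 without control replicate 3. Only 5 genes were called in the same direction in the main test and in each of the 19 other analyses: Cox6a1, Cox6a2 and Ndufb8 as higher, and Cox4i2 and Ndufa4l2 as lower. The median SD of log2 values was 0.166 among the controls and 0.0767 among the shGDF11 libraries, and it was larger in control for 87 of the 109 genes.

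**Figure D2:**
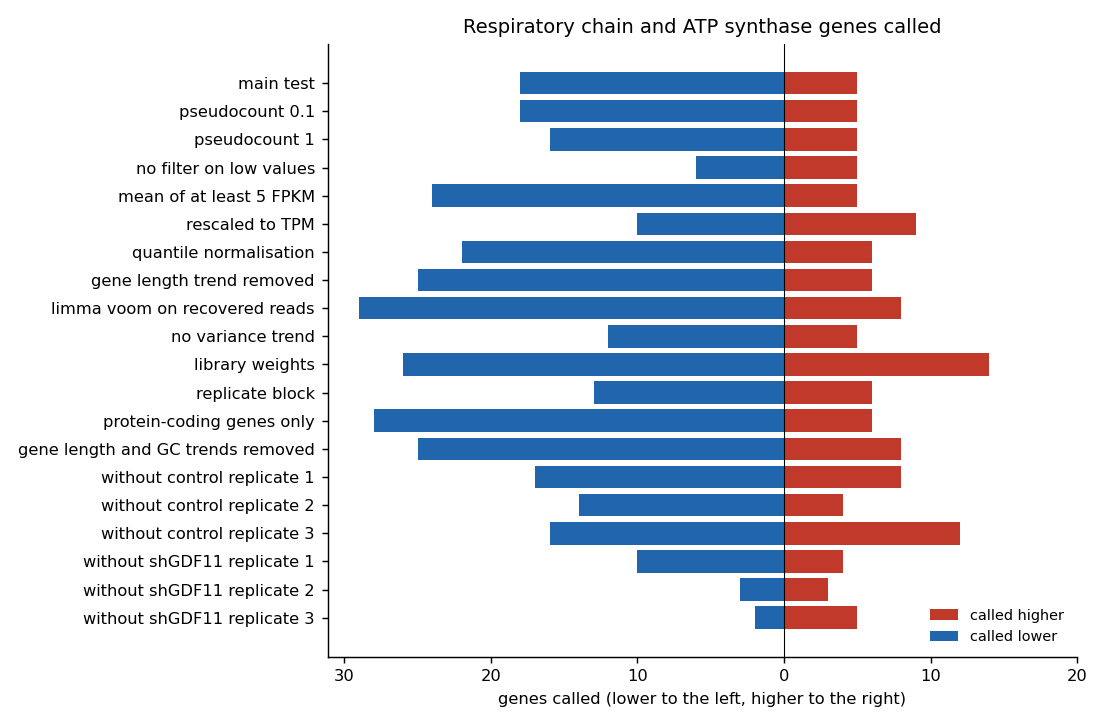
Number of respiratory chain and ATP synthase genes called lower (blue, to the left) and higher (red, to the right) in the main test and in 19 other analyses, 1 per row. The lower calls run from 2 without shGDF11 replicate 3 to 29 with voom on recovered reads, and the higher calls from 3 to 14.

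The promoters of 7 of the 10 genes with the largest called rises and falls are printed here, because the factors that bind such promoters are measured below beside the genes themselves. The windows run from 250 bases before to 50 bases after an annotated start (RefSeq, GRCm38.p6) and were matched by name for 88 genes. The other 3 of the 10 are Cox6a2, Cox4i2 and Ndufa4l2. Capitals mark matches on either strand to GCGC, any 2 bases and GCGC, the core bound by NRF1 (nuclear respiratory factor 1), to CCGGAAGT, bound by ETS factors such as GABP, and to AAGATGGC, bound by YY1. The window of Atp5j2 lies around a start 521 bases from that of the gene in the file. Cox6a1, Ndufb8, Atp5h and Atp5j2 were called higher, and Atp5g3, Uqcrh and Sdhaf4 were called lower.
Cox6a1, chr5:115348909-115349208, minus strand: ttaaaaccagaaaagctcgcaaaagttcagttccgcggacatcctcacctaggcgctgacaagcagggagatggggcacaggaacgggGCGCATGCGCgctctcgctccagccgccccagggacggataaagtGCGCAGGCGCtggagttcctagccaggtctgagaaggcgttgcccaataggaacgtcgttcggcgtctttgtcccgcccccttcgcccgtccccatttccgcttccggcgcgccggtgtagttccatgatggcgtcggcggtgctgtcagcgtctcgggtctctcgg
Ndufb8, chr19:44555393-44555692, minus strand: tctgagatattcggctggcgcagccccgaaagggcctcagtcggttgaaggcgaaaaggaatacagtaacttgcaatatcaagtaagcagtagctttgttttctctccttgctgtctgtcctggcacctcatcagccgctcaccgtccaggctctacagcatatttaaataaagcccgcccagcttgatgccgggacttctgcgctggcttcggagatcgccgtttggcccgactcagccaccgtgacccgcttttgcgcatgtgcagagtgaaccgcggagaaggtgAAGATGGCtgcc
Atp5h, chr11:115419870-115420169, minus strand: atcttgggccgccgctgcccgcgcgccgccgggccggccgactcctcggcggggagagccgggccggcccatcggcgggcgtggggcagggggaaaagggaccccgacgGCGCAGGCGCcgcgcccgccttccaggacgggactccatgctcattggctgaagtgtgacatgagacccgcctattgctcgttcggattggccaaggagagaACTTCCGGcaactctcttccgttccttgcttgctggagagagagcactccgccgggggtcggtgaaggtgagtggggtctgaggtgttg
Atp5j2, chr5:145191492-145191791, minus strand: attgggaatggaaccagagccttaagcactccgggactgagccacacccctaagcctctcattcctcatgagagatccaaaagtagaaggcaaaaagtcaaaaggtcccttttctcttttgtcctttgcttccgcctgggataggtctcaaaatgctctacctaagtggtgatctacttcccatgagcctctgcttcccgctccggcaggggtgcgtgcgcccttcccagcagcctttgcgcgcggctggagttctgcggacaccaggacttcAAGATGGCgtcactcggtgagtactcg
Atp5g3, chr2:73911277-73911576, minus strand: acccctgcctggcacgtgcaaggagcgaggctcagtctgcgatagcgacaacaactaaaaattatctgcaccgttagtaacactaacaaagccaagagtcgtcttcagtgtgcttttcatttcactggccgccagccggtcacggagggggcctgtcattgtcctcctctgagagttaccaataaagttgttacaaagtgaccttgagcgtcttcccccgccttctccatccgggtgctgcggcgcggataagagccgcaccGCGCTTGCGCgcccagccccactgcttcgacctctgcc
Uqcrh, chr4:116075021-116075320, minus strand: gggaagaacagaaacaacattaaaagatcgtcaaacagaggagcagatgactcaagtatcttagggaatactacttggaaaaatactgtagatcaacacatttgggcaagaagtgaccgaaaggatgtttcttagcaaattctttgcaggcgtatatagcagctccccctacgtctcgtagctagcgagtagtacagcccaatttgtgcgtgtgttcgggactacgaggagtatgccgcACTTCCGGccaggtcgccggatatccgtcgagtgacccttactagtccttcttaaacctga
Sdhaf4, chr1:24005591-24005890, minus strand: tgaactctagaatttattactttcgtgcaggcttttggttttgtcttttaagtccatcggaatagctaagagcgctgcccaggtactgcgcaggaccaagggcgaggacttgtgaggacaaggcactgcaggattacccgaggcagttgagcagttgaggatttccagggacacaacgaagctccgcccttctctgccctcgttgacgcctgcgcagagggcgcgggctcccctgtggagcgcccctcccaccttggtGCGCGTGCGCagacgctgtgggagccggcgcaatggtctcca

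The Cox6a1 window held 2 NRF1 matches, beginning 162 and 117 bases before the start. The Atp5h window held an NRF1 match beginning 141 bases and an ETS match beginning 39 bases before it. Ndufb8 and Atp5j2 each held a YY1 match after the start. Among the genes that fell, Atp5g3 and Sdhaf4 each held an NRF1 match after the start and Uqcrh an ETS match before it, so such letters stood in promoters of both directions.

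Over the 88 windows 26.1% held the NRF1 letters, 10.2% the ETS letters and 13.6% the YY1 letters. Among 12834 windows of tested protein-coding genes the shares were 12.7%, 7.64% and 4.16%, and over all 32851 windows 6.23%, 3.89% and 2.75%. At least 1 of the motifs was found in 4 of 4 windows of genes called higher, 9 of 13 of those called lower and 27 of 70 of those not called. No such share was computed for the windows of other genes, and a link between motif and call was not tested. A match describes letters in a window and not a bound site.

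Complex I accepts electrons from NADH. Of its 38 tested subunit genes, as grouped by name, 1 was called higher and 7 lower, with a median log2 fold change of -0.13. Their summed level was 4059, 3386 and 3686 FPKM in control and 3449, 3371 and 3344 FPKM in shGDF11, so that control replicate 2 lay among the shGDF11 libraries. Of the 11 Ndufs and Ndufv genes, most of which encode the peripheral arm with its flavin and iron-sulfur clusters, 5 were called lower and 0 higher. That is 45.5%, where 13.1% of all tested genes were called lower and 14.4% higher. These 5 falls were small. Without shGDF11 replicate 2, or without shGDF11 replicate 3, Ndufa4l2 was the only complex I subunit called lower. Ndufv1, which carries the flavin that takes electrons from NADH, was at 166.4, 137.4 and 140.4 FPKM in control and at 121.3, 109.0 and 114.1 FPKM in shGDF11 (log2 fold change -0.36 ± 0.0883 (SE), limma adjusted p = 0.024).

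Ndufs3, a core subunit near the ubiquinone site, was at 73.7, 64.0 and 72.0 FPKM in control and at 59.2, 56.3 and 54.7 FPKM in shGDF11 (log2 fold change -0.30, limma adjusted p = 0.022). Ndufs1 and Ndufs7, core subunits that hold iron-sulfur clusters, changed by -0.20 and -0.18 (limma adjusted p = 0.046 and 0.045). In these 4 genes each shGDF11 value lay below each control value. The calls of Ndufs1 and Ndufs7 were made again in 9 and 6 of the 19 other analyses, and those of Ndufv1 and Ndufs3 in 16 and 15. Another 6 of the 11 genes were not called, among them Ndufv2, the NADH-side partner of Ndufv1, at 92.2 to 102.6 FPKM in control and 95.2 to 100.4 FPKM in shGDF11.

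Ndufb8, an accessory subunit of the membrane arm, was the complex I gene called higher (ENSMUSG00000025204, chromosome 19, minus strand, 44548572 to 44555440 in GRCm38). It was at 23.3, 16.9 and 20.4 FPKM in control and at 30.8, 32.6 and 35.8 FPKM in shGDF11. The lowest shGDF11 value was above the highest control, with a log2 fold change of 0.71 ± 0.120 (SE, limma adjusted p = 0.0062). The other 11 Ndufb and Ndufc genes were not called. They ran from Ndufb6, at -0.43 (limma adjusted p = 0.060), to Ndufb2, at 0.23 (limma adjusted p = 0.18).

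Among the 14 Ndufa genes, mostly accessory subunits, Ndufa9 and Ndufa4l2 were called lower. Ndufa9, next to the ubiquinone site, changed by -0.25 (limma adjusted p = 0.025). Ndufa4l2 (ENSMUSG00000040280, plus strand of chromosome 10 at 127514967 to 127517154) is a paralog of Ndufa4 and a known target of the hypoxia factor HIF-1. Ndufa4, despite its name, is now counted as a complex IV subunit. Ndufa4l2 was at 49.2, 32.8 and 31.2 FPKM in control and at 16.4, 14.7 and 17.9 FPKM in shGDF11. All shGDF11 values lay below all controls, with a log2 fold change of -1.16 ± 0.173 (SE, limma adjusted p = 0.0038). Ndufa4 was at 281.5, 225.1 and 249.6 FPKM and at 201.1, 211.7 and 205.8 FPKM and missed the threshold (log2 fold change -0.28, limma adjusted p = 0.052). Ndufa4l2 made up 12.9% ± 1.88 of the pair's summed FPKM in control and 7.35% ± 0.775 in shGDF11 (SD, n = 3).

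The complex I assembly factors Ndufaf1 to Ndufaf8 gave no call in limma among 8 tested (2 had an unadjusted p under 0.05, and voom called 2), and they summed to 86.1 to 101.3 FPKM (control) and 84.4 to 90.2 FPKM (shGDF11). The nearest to the threshold was Ndufaf8, at 14.7, 8.63 and 8.16 FPKM in control and 6.13, 5.27 and 6.99 FPKM in shGDF11 (log2 fold change -0.69, limma adjusted p = 0.055). Ndufaf4 was on the other side, at 0.32 (limma adjusted p = 0.11).

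Complex II, succinate dehydrogenase, is encoded in the nucleus alone. Sdha, the flavin subunit, was at 148.0, 130.6 and 144.7 FPKM in control and at 153.3, 158.5 and 152.1 FPKM in shGDF11 and was not called (limma adjusted p = 0.18). Sdhd, a membrane anchor, was at 235.3, 177.6 and 182.7 FPKM and at 160.2, 152.7 and 142.8 FPKM, a log2 fold change of -0.38 just past the threshold (limma adjusted p = 0.0499). It was called again in 11 of the 19 other analyses. Sdhb, the iron-sulfur subunit, and Sdhc, the other anchor, each changed by less than 0.1 in the log2 estimate and were not called.

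Of the 4 complex II assembly factors, Sdhaf4, which helps to build the flavin-bearing subunit into the complex, was called lower (ENSMUSG00000026154, minus strand of chromosome 1 at 23995939 to 24005656). It was at 23.3, 15.0 and 17.0 FPKM in control and at 9.96, 11.7 and 10.2 FPKM in shGDF11, with no overlap (log2 fold change -0.75 ± 0.156 (SE), limma adjusted p = 0.014). The call was lost when shGDF11 replicate 1 or replicate 3 was left out. Of its exon bases, 12.7% lie opposite the gene model Gm26524, and without knowledge of strand in counting such reads cannot be told apart.

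Complex III subunit genes lay mostly below their control level. Of the 9 subunit genes 3 were called lower and 0 higher, the median log2 fold change was -0.26, and 8 of 9 estimates were below 0. The share called, 33.3%, was near the 27.6% of all tested genes and the 30.3% of protein-coding ones. Of all 15418 tested genes, 7595 had estimates below 0. Their summed level was 2423, 2088 and 2225 FPKM in control and 2040, 1905 and 1955 FPKM in shGDF11, and these sums did not overlap. Uqcrh, the hinge protein beside cytochrome c1 (ENSMUSG00000063882, minus strand of chromosome 4 at 116066965 to 116075071), was at 264.8, 208.7 and 196.6 FPKM in control and at 163.5, 157.5 and 138.1 FPKM in shGDF11. All shGDF11 values were below all controls (log2 fold change -0.54 ± 0.124 (SE), limma adjusted p = 0.019).

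Uqcrfs1, the Rieske iron-sulfur protein, was at 292.1, 244.6 and 230.6 FPKM in control and at 201.7, 178.7 and 174.1 FPKM in shGDF11 (log2 fold change -0.46 ± 0.105 (SE), limma adjusted p = 0.018). Uqcrc1, a core protein, was at 161.1, 164.8 and 173.9 FPKM and at 147.8, 136.7 and 133.8 FPKM (log2 fold change -0.26, limma adjusted p = 0.025). Uqcrc2, its partner core protein, was at 127.4 to 137.5 FPKM in control and 125.6 to 131.8 FPKM in shGDF11 and was not called. Cyc1, cytochrome c1, missed the threshold at -0.35 (limma adjusted p = 0.052). Uqcrb, a small ubiquinone-binding subunit, was the exception in direction, at 286.7, 260.6 and 346.7 FPKM in control and 352.1, 371.2 and 377.0 FPKM in shGDF11, and was not called (limma adjusted p = 0.074). All 3 falls were lost when shGDF11 replicate 2 or replicate 3 was left out. The assembly factors Uqcc1, Uqcc2 and Uqcc3 were not called, with an unadjusted p under 0.05 in limma for 1 of them. Cycs, the mobile carrier cytochrome c, was at 106.4, 94.1 and 113.3 FPKM in control and 94.9, 99.7 and 92.5 FPKM in shGDF11 and was not called (limma adjusted p = 0.29).

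Complex IV, cytochrome c oxidase, held the largest rises. Of its 16 tested subunit genes 2 were called higher and 2 lower, 25% in all, against 27.6% of all tested genes. Their sums were 3902 to 4640 FPKM (control) and 4330 to 4620 FPKM (shGDF11), with the groups overlapping. Cox6a1 (ENSMUSG00000041697, minus strand of chromosome 5 at 115345642 to 115348981) encodes the widely expressed form of subunit 6A. It was at 311.9, 299.8 and 253.0 FPKM in control and at 750.3, 569.8 and 718.3 FPKM in shGDF11. Even the lowest shGDF11 library lay far above the highest control, with a log2 fold change of 1.23 ± 0.128 (SE) and a ratio of means of 2.36 (limma adjusted p = 0.0011).

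Cox6a2 (ENSMUSG00000030785, minus strand of chromosome 7 at 128205435 to 128206387) encodes the heart and skeletal muscle form of the same subunit. It was at 130.1, 123.0 and 138.7 FPKM in control and at 279.0, 258.1 and 282.9 FPKM in shGDF11, a log2 fold change of 1.06 ± 0.0700 (SE, limma adjusted p = 0.00029). Both forms of the subunit thus rose, without overlap between the groups in either. Together they reached 418.8 ± 25.4 FPKM (control) and 953 ± 109 FPKM (shGDF11; SD, n = 3). Cox6a2 made up 31.3% ± 3.56 of it in control and 28.9% ± 2.10 in shGDF11 (SD, n = 3), and these shares overlapped. Of the exon bases of Cox6a2, 10.3% lie opposite Itgad, and Cox6a1 had no near-identical copy elsewhere.

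**Figure D3:**
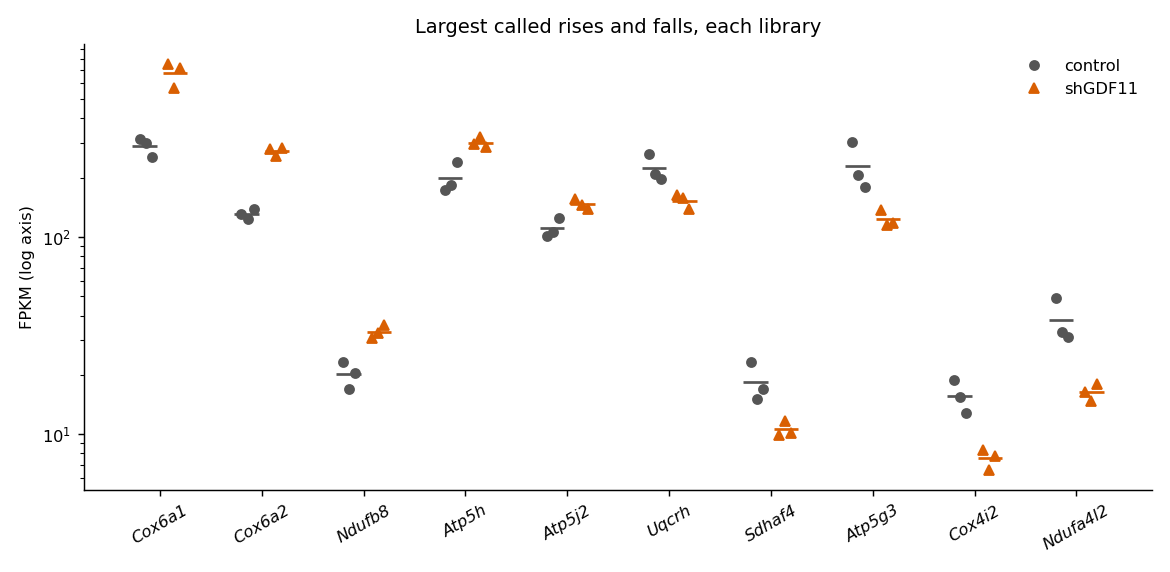
FPKM (log axis) in each library of the 5 largest called rises and 5 largest called falls among the respiratory chain and ATP synthase genes. Grey circles are control and orange triangles shGDF11 libraries, lines are group means, and in none of the 10 genes do the groups overlap.

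Cox4i2 (ENSMUSG00000009876, plus strand of chromosome 2 at 152754173 to 152765037) encodes the form of subunit 4 known to be induced by low oxygen. It was at 18.8, 15.4 and 12.8 FPKM in control and at 8.34, 6.59 and 7.79 FPKM in shGDF11. All shGDF11 values lay below all controls, with a log2 fold change of -0.99 ± 0.147 (SE, limma adjusted p = 0.0037). Its common partner Cox4i1 was at 677.1, 605.9 and 698.6 FPKM in control and 664.2, 632.4 and 618.9 FPKM in shGDF11 and was not called (limma adjusted p = 0.69). Cox4i2 therefore made up a small part of the pair, 2.33% ± 0.468 in control and 1.17% ± 0.122 in shGDF11 (SD, n = 3).

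Some but not all markers of vessel cells were lower in shGDF11. Of all tested genes, 13.1% were called lower and 14.4% higher. The 7 smooth muscle and pericyte markers summed to 1013 to 1090 FPKM in control and 405 to 410.4 FPKM in shGDF11, mostly Acta2, and 5 of 7 were called lower, while Rgs5 and Pdgfrb were not. The 7 endothelial markers summed to 59.0 to 63.2 FPKM and 41.0 to 44.7 FPKM, with 5 called lower, while Tek and Emcn were not called. Of the 7 macrophage markers, 2 of 5 tested were called lower, with sums of 139.5 to 160.6 FPKM and 113.3 to 123.1 FPKM. In the other direction, 2 of 8 fibroblast markers (sums 291.4 to 346.1 FPKM and 368.4 to 385.5 FPKM) and 3 of 5 epicardial markers (12.4 to 14.2 FPKM and 20.5 to 22.9 FPKM) were called higher. Of the 4 Schwann markers only S100b was tested, and it was called higher. The 6 erythroid markers were under the filter, with sums of at most 0.878 FPKM. The part of other cell types in the changes of respiratory chain and ATP synthase genes was not tested, and in such bulk samples fewer cells of a type and less RNA per cell cannot be told apart.

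The other complex IV isoform pairs gave no call. Cox7a1, the heart and muscle form of subunit 7A, was at 162.2, 114.6 and 143.2 FPKM in control and 148.3, 159.7 and 147.3 FPKM in shGDF11 (limma adjusted p = 0.48), beside Cox7a2 (limma adjusted p = 0.43). Cox6b2, known from testis, was at 9.76, 6.55 and 7.25 FPKM and at 13.6, 8.65 and 11.8 FPKM (limma adjusted p = 0.098), beside Cox6b1 at 449.6 to 687.5 FPKM and 455.6 to 467.1 FPKM (limma adjusted p = 0.41). Cox8a, the common form of subunit 8, was at 721.2, 673.5 and 702.8 FPKM and at 616.6, 547.4 and 625.2 FPKM (limma adjusted p = 0.064). Cox7b was at 227.1 to 267.1 FPKM and 213.8 to 225.6 FPKM (limma adjusted p = 0.16). Of the subunits without an isoform, Cox5a was called lower at -0.34, just past the threshold (limma adjusted p = 0.0497), and again in 10 of the 19 other analyses.

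**Figure D4:**
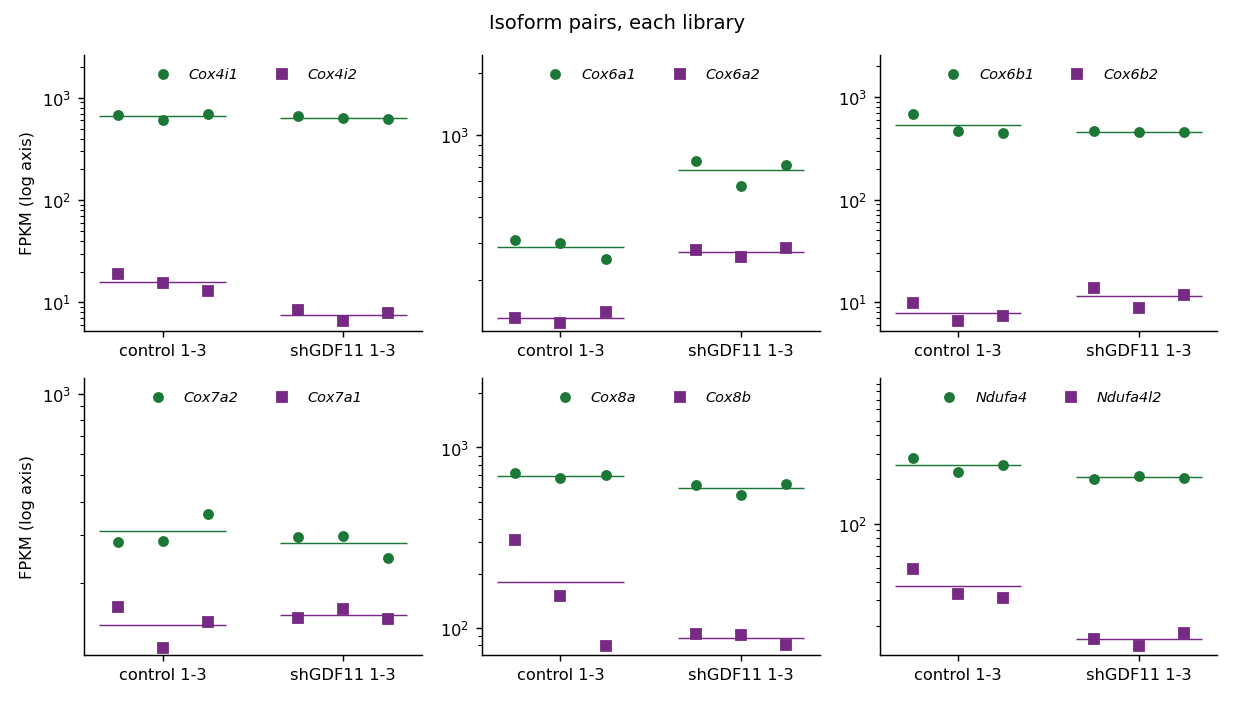
FPKM (log axis, a different range in each panel) of 6 isoform pairs, controls 1 to 3 at the left and shGDF11 1 to 3 at the right of each panel. Points are libraries and lines group means, green circles for the more abundant gene and purple squares for the other. Cox6a1 and Cox6a2 are both higher in shGDF11, and Cox4i2 and Ndufa4l2 are lower.

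Among the 9 complex IV assembly factors Cox16 was called lower, at 2.51, 1.95 and 1.65 FPKM in control and 1.25, 0.993 and 1.26 FPKM in shGDF11 (log2 fold change -0.60 ± 0.154 (SE), limma adjusted p = 0.028). It shares 56.8% of its exon bases with the gene model Gm20498 on the same strand, so its reads may be split or lost in counting. Without either control replicate 1 or control replicate 2, or any of the shGDF11 replicates, it was not called. Cox20, the lowest of the 109 at a mean of 0.786 FPKM, lies over 91.1% of its exon bases opposite Hnrnpu and is uncertain for that reason. The remaining factors, among them the heme A enzymes Cox10 and Cox15 and the copper carriers Cox11, Cox17 and Cox19, were not called.

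ATP synthase held the 2 genes with the highest levels of the 112. Atp5b and Atp5a1, the catalytic beta subunit and its alpha partner, had means of 869.9 and 711.7 FPKM over the libraries and were not called (limma adjusted p = 0.84 and 0.22). Of 17 tested genes 2 were called higher and 3 lower, 29.4% in all, against 27.6% of all tested genes. All together summed to 3239 to 3661 FPKM (control) and 3195 to 3316 FPKM (shGDF11). Atp5h, subunit d of the peripheral stalk (minus strand of chromosome 11 at 115415689 to 115419962), was at 173.7, 183.1 and 240.5 FPKM in control and at 297.3, 320.0 and 285.4 FPKM in shGDF11 (log2 fold change 0.61 ± 0.126 (SE), limma adjusted p = 0.013). It has 4 near-identical pseudogene copies, whose summed reads were 790, 966 and 1174 in control and 1432, 1617 and 1298 in shGDF11, so the split of reads between them is uncertain. Without shGDF11 replicate 2 its adjusted p in limma was 0.056.

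Atp5j2, the membrane subunit f (minus strand of chromosome 5 at 145183698 to 145192062), was at 101.7, 105.7 and 124.9 FPKM in control and at 155.8, 145.5 and 139.4 FPKM in shGDF11 (log2 fold change 0.41 ± 0.0909 (SE), limma adjusted p = 0.017). Its call was lost when control replicate 2 or when shGDF11 replicate 1 or 2 was left out. Atp5g3 (minus strand of chromosome 2 at 73908447 to 73911326) is 1 of 3 genes that encode the same mature subunit c of the rotor ring. It was at 301.6, 206.9 and 179.4 FPKM in control and at 136.6, 115.3 and 117.1 FPKM in shGDF11, with no overlap (log2 fold change -0.86 ± 0.185 (SE), limma adjusted p = 0.015). Without shGDF11 replicate 2 or shGDF11 replicate 3 it was not called. The other genes for subunit c were not called: Atp5g1 was at 66.9 to 75.8 FPKM in control and 67.4 to 74.8 FPKM in shGDF11, and Atp5g2 at 69.2 to 87.2 FPKM and 73.8 to 87.3 FPKM.

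The small membrane subunits Atp5mpl and Atp5l (subunit g) were also called lower. Atp5mpl was at 177.7, 193.8 and 191.8 FPKM in control and 158.9, 126.8 and 141.1 FPKM in shGDF11 (log2 fold change -0.40, limma adjusted p = 0.018), and Atp5l changed by -0.33 (limma adjusted p = 0.027). Atp5l has 9 near-identical copies, 8 of them pseudogenes, whose summed reads were 1372, 1331 and 1510 in control and 1207, 1179 and 1063 in shGDF11, beside 3673, 3199 and 3646 and 2826, 2903 and 2660 of its own, so its split of reads is uncertain too. Both calls were lost after rescaling to TPM, and also when shGDF11 replicate 2 or shGDF11 replicate 3 was left out. Genes of the catalytic head and its stalks other than Atp5h, namely Atp5a1, Atp5b, Atp5c1, Atp5d, Atp5e, Atp5f1, Atp5j and Atp5o, were not called.

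The controls differed among themselves. Of the 109 genes, 64 had their highest control value in control replicate 1 and 59 their lowest in control replicate 2. Against the other 2 controls the median log2 difference was 0.11 for replicate 1 and -0.15 for replicate 2. In shGDF11, replicate 1 was the highest of its group in 54 genes. In control replicate 1, 8 genes were over 1.5-fold above both other controls: Atp5k, Cox11, Cox8b, Ndufa12, Ndufa3, Ndufaf8, Sdhaf1 and Uqcr11. Control replicates 2 and 3 each had 0 such genes. Atp5k, the membrane subunit e of ATP synthase, was at 140.7, 34.6 and 13.4 FPKM in control and at 12.0, 13.7 and 12.7 FPKM in shGDF11. Cox8b, the muscle form of complex IV subunit 8, was at 307.8, 150.6 and 79.2 FPKM in control and at 92.5, 91.6 and 80.9 FPKM in shGDF11. Ndufa12, an accessory complex I subunit, was at 54.6, 20.7 and 15.2 FPKM and at 14.2, 14.2 and 15.1 FPKM. In these 3 genes control replicate 3 was the lowest control and lay close to the shGDF11 libraries, and none was called (limma adjusted p = 0.14, 0.21 and 0.19).

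Some classes of short protein-coding genes were also higher in control replicate 1. The 238 tested protein-coding genes of 700 to 1000 bases, 18 of them respiratory chain or ATP synthase genes, had a median of 0.15 above their mean over the libraries on the log2 scale there, and of -0.07 to 0.07 in the other 5 libraries. Over all 552 tested genes of that length the median there was 0.06. Over the 1451 tested genes below 700 bases it was 0.02, under the 0.04 of shGDF11 replicate 1 and the 0.03 of shGDF11 replicate 2. The 146 protein-coding ones below 700 bases had 0.10 in control replicate 1 and -0.06 to 0.01 in the other libraries. For the 637 protein-coding genes of 1000 to 1500 bases it was 0.14 there, against -0.06 to 0.04 in the others. The tested respiratory chain and ATP synthase genes had a median length of 1718 bases, against 3713 for all tested genes. With the length trend removed within each library, 6 of them were called higher and 25 lower. Without control replicate 1, 8 were called higher and 17 lower, and 5 of the 5 higher and 15 of the 18 lower calls were among these.

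**Figure D5:**
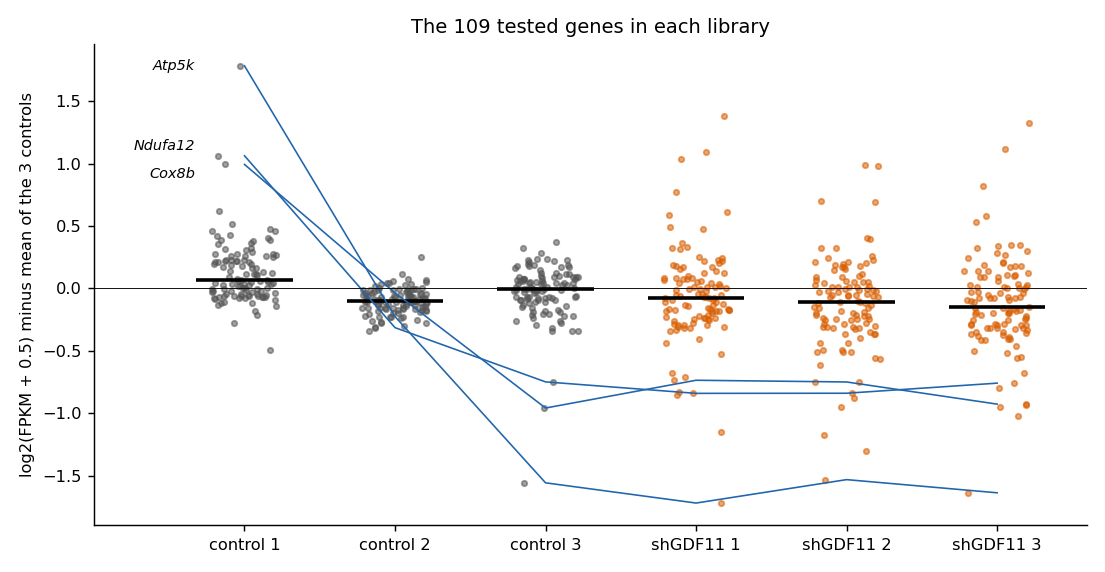
Log2(FPKM + 0.5) of each of the 109 tested genes in each library, minus its mean over the 3 controls (vertical axis). Grey points are control and orange points shGDF11 libraries, black bars are medians, and blue lines follow Atp5k, Ndufa12 and Cox8b, which are high in control replicate 1 and low in control replicate 3.

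Genes of the pathway outside the name rule were read from the same test. Of 33 tested assembly and stability factors 7 were called higher and 3 lower, 30.3% in all, near the 27.6% of all tested genes and the 30.3% of protein-coding ones. Cmc2, a factor for complex IV, rose from 9.31 to 22.6 FPKM on average (log2 fold change 1.24, limma adjusted p = 0.00051), beside 1.23 for Cox6a1. Ttc19, which clears fragments of the Rieske protein from complex III, fell from 9.62 to 5.66 FPKM (log2 fold change -0.72, limma adjusted p = 0.0011). Coa5, another complex IV factor, rose from 29.6 to 42.8 FPKM (log2 fold change 0.53, limma adjusted p = 0.0034).

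Of 15 regulators of mitochondrial biogenesis 3 were called higher and 2 lower, 33.3% in all, also near those shares. Esrrg, an estrogen-related receptor that drives oxidative genes in the heart, rose from 3.64 to 7.27 FPKM (log2 fold change 0.91, limma adjusted p = 0.00069). Gabpa and Gabpb1, the subunits of the ETS factor GABP, rose by 0.39 and 0.28 (limma adjusted p = 0.030 and 0.046). Ppargc1b, a coactivator of such genes, fell from 7.89 to 5.79 FPKM (limma adjusted p = 0.011), and Ppara, a receptor that drives fatty acid oxidation, from 1.90 to 1.13 FPKM (limma adjusted p = 0.039). Ppargc1a, Nrf1, Yy1, Tfam and Esrra were not called (limma adjusted p = 0.17, 0.88, 0.44, 0.21 and 0.092).

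Of the 13 protein genes of the mitochondrial genome 2 were called lower and 0 higher, 15.4% in all, against 27.6% of all tested genes. Their values were uneven. In control mt-Co1 averaged 17160 FPKM, mt-Co2 121.1 FPKM and mt-Atp6 78.3 FPKM, and mt-Atp8 was at 6.86, 6.76 and 247 FPKM. The cause of this was not tested. mt-Cytb, the complex III subunit made in the mitochondrion, fell from 6011 to 4215 FPKM (log2 fold change -0.51, limma adjusted p = 0.014), and mt-Nd3, of complex I, from 163 to 130.2 FPKM (log2 fold change -0.32, limma adjusted p = 0.0100). Of 19 genes that copy and express mitochondrial DNA 1 was called higher, Pnpt1, and 3 lower, 21.1% in all. Polrmt, the mitochondrial RNA polymerase, fell by 0.47 on the log2 scale, Tfb2m, its initiation factor, by 0.54, and Tufm, the elongation factor, by 0.32 (limma adjusted p = 0.016, 0.026 and 0.042).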

How the data were processed

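The authors deposited 1 table, named as FPKM, for 54532 Ensembl genes in 6 RNA-seq libraries. Per the submitters' processing notes, the builds were GRCm38 and mm10 and the tools included featureCounts 1.5.0-p3, HISAT2 2.0.5 and CASAVA 1.8. Annotation release and strand setting: not given in the sources used here. FPKM times gene length gave whole reads (within 0.05) for at least 99.97% of values in every library. Libraries were grouped by their treatment label. With limma 3.58.1 in R 4.3.3, log2(FPKM + 0.5) was tested for genes averaging 0.5 FPKM or more (moderated two-sided test with variance trend, no covariate), with Benjamini-Hochberg adjustment over all 15418 tested genes and a threshold of 0.05. The procedure was tested on simulated data. Named genes were the 3 called members with the smallest p in each complex, the 5 largest called rises and falls, all isoform pairs, the called regulators and up to 3 called genes of each other list. Other members, such as those of complex I and those high in control replicate 1, were named after their values were seen. The members, the 4 pathway lists and the 8 marker lists were chosen with earlier results of these data known. Near-identical copies are matches of at least 150 bases at 95% identity in the annotated transcripts, and 29 of the 112 genes had one. Alternatives changed the pseudocount, filter, scaling, length trend, test, weights, replicate block, gene set and libraries, and 1 (GC content with length) was chosen after seeing the data. Positions are those of the file (GRCm38).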

Additional observations from a re-analysis of the deposited data

How the results depend on the processing

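Cox7b2, 1 of the 25 named members, was under the filter of the main test and gave no value here. The other named members gave 455 values under the alternatives. Of these, 393 kept their direction and side of the threshold, 40 fell below it, 16 passed it and 6 changed sign, in genes that were not called. Cox4i1 turned to 0.0448 after rescaling to TPM, 0.00799 after quantile normalisation, 0.0105 with library weights and 0.0440 with length and GC trends removed. With single libraries left out, Cox6b1 ran from -0.30 to 0.0043 (without control replicate 1) and Cox7a1 from -0.0075 (without control replicate 2) to 0.24. The cause was not tested for these or for the counts that follow.

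Against 5 higher and 18 lower members, there were 6 lower with no filter (more genes share the adjustment), 9 higher and 10 lower in TPM, 8 and 29 with voom, 14 higher with library weights, 28 lower among protein-coding genes (fewer genes tested) and 8 higher with length and GC trends removed. The 8 complex I subunits called became 3 with no filter, 4 in TPM, 14 with voom, 4 with no variance trend, 15 with library weights and 14 with length and GC trends removed. The complex I assembly factors, 0 called, gave 2 with voom and 1 each at a mean of at least 5 FPKM, in TPM, with quantile normalisation, with the length trend or with length and GC trends removed, with library weights and among protein-coding genes. The 2 calls of complex II became 1 with a pseudocount of 1, with no filter and with no variance trend. The 3 of complex III became 0 with no filter, 5 at a mean of at least 5 FPKM and 6 with voom, with library weights and among protein-coding genes. The 4 of complex IV subunits became 7 with library weights. The 1 of complex IV assembly became 0 with no filter and 2 with quantile normalisation, with the length trend or length and GC trends removed, with voom, with library weights and among protein-coding genes. The 5 of ATP synthase became 3 in TPM.

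Leaving out 1 library at a time, which leaves fewer samples, gave 2328 to 4233 called genes over all, 3 to 12 higher and 2 to 17 lower members, 2 to 8 complex I subunits, 0 to 2 complex I assembly factors, 0 to 2 of complex II, 0 to 5 of complex III, 3 to 5 complex IV subunits, 0 to 1 complex IV assembly factors and 0 to 6 of ATP synthase. With the replicate number as a block, 3223 genes and 6 higher and 13 lower members were called, with 5 complex I subunits and 2 complex IV assembly factors. The values showed no pairing by number: deviations of same-numbered libraries correlated at 0.02, 0.01 and -0.05, and control replicate 1 correlated best with shGDF11 replicate 3, at 0.04. These correlations cannot tell if same-numbered libraries were prepared together, which the labels leave unsaid. Depth limits the lowest genes, such as Cox20 and Sdhaf1, and intervals cover the spread between libraries only.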

Other observations

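Reads of Ndufa12 and of its pseudogene copy moved in opposite directions in control replicate 1. Ndufa12 had 1347, 542 and 389 reads in the controls and 367, 366 and 382 in the shGDF11 libraries. The copy, 99.5% identical over 402 bases, had 365, 621 and 621 reads in the controls and 625, 651 and 642 in the shGDF11 libraries. The miRNA gene model Gm23935 was at 40996, 9686 and 1939 FPKM in the controls and at 2272, 1065 and 1886 FPKM in the shGDF11 libraries, with the same order over the controls as Atp5k, Cox8b and Ndufa12. The relation between these values was not tested.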
